A study of Mus musculus with 6 samples.

Results

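The genes described here encode 9 proteins that work beside TET1 or in the same repressive and activating chromatin complexes, and they were taken by symbol from the deposited count table, where 9 of 21878 genes carried one of the names. They are the histone deacetylases *Hdac1* and *Hdac2* and their scaffold *Sin3a*, the core of Polycomb repressive complex 2 (PRC2) with *Ezh2*, *Eed* and *Suz12*, the O-GlcNAc transferase *Ogt*, and the acetyltransferases *Ep300* and *Crebbp*. Whole thyroid glands of female mice aged 12 weeks were sequenced, 3 from Thy-Tet1+/+ mice and 3 from mice labelled Thy-Tet1-/-. The knockout was made by crossing floxed *Tet1* mice with mice whose Cre recombinase is expressed in thyroid follicular epithelial cells, so the other cells of the gland kept *Tet1*. No agent was given, neither group came from the *Braf* crosses of the study, and the study asked how loss of TET1 alters thyroid gene expression, with attention to the recruitment of HDAC1. One protocol in the labels speaks of retinas, whereas tissue and source are given as thyroid.

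TET1 oxidizes 5-methylcytosine in DNA and also acts as a scaffold that brings other enzymes to CpG-rich promoters. HDAC1 and HDAC2 remove acetyl groups from histone tails and are held by SIN3A in a corepressor complex, while p300 (*Ep300*) and CBP (*Crebbp*) add such groups and act as coactivators. PRC2 methylates lysine 27 of histone H3 through EZH2, with EED and SUZ12 needed for its activity. OGT attaches single N-acetylglucosamine residues to nuclear and cytoplasmic proteins, binds TET proteins, and also cleaves the transcriptional cofactor HCF-1.

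The 6 libraries held 8867683 to 19950898 counts, the first Thy-Tet1+/+ library being the shallowest, and 3 counts corresponded to 0.150 to 0.338 counts in 1000000 (CPM). Thyroglobulin (*Tg*), the defining product of thyroid follicles, took 21.2% to 29.4% of counts. The targeted gene went against the label: *Tet1* gave 48, 71 and 62 counts for Thy-Tet1+/+ but 172, 162 and 241 counts where the label was Thy-Tet1-/-, or 4.31 ± 1.21 against 10.4 ± 1.599 CPM (SD, n = 3). Counts over a whole gene do not resolve a deleted exon, and the floxed exon is not given in the sources used here. By tissue staining, the paper reports significantly less TET1 protein in thyroids of Thy-Tet1-/- mice than in those of Thy-Tet1+/+ mice. It also reports less of the oxidized DNA base that TET1 makes. Whether the sequenced glands were among those stained is not given. The second group is therefore called by its label throughout. Markers of other cells varied between libraries. The mean log2 CPM of 8 skeletal muscle genes lay between 6.32 and 9.23 in the Thy-Tet1+/+ libraries and between 1.44 and 9.48 in the others, and that of 10 epithelial genes was lower in every library labelled Thy-Tet1-/- (7.07 to 7.13) than in any Thy-Tet1+/+ library (7.45 to 7.78). The score of the follicular cell list, 9 of 10 listed genes being tested, overlapped between the groups (8.53 to 8.60 against 8.27 to 8.56). In whole glands, fewer cells of a type and less RNA per cell cannot be told apart.

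All 9 genes were above the count filter and were tested with edgeR among 14143 genes. *Ogt* was the one gene of the 9 that differed by more than 1.5-fold with an unadjusted p under 0.05, in a data set where 9.2% of tested genes did so in either direction and 5.54% did so upwards. With Benjamini-Hochberg adjustment over all tested genes, edgeR called 0 of the 9, beside 0.113% of all genes, although 1 of the 9 had an unadjusted p under 0.05, beside 18.9% of all genes. DESeq2 called 1 of the 9, again *Ogt*, where it called 8.43% of all genes, and limma-voom called 0. Groups did not overlap for 1 of the 9, against 26.8% of all genes. The 9 log2 fold changes (libraries labelled Thy-Tet1-/- over Thy-Tet1+/+) had a median of 0.14, and 8 were positive, beside a median of 0.00063 and 7080 positive values over all tested genes.

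**Figure D1:**
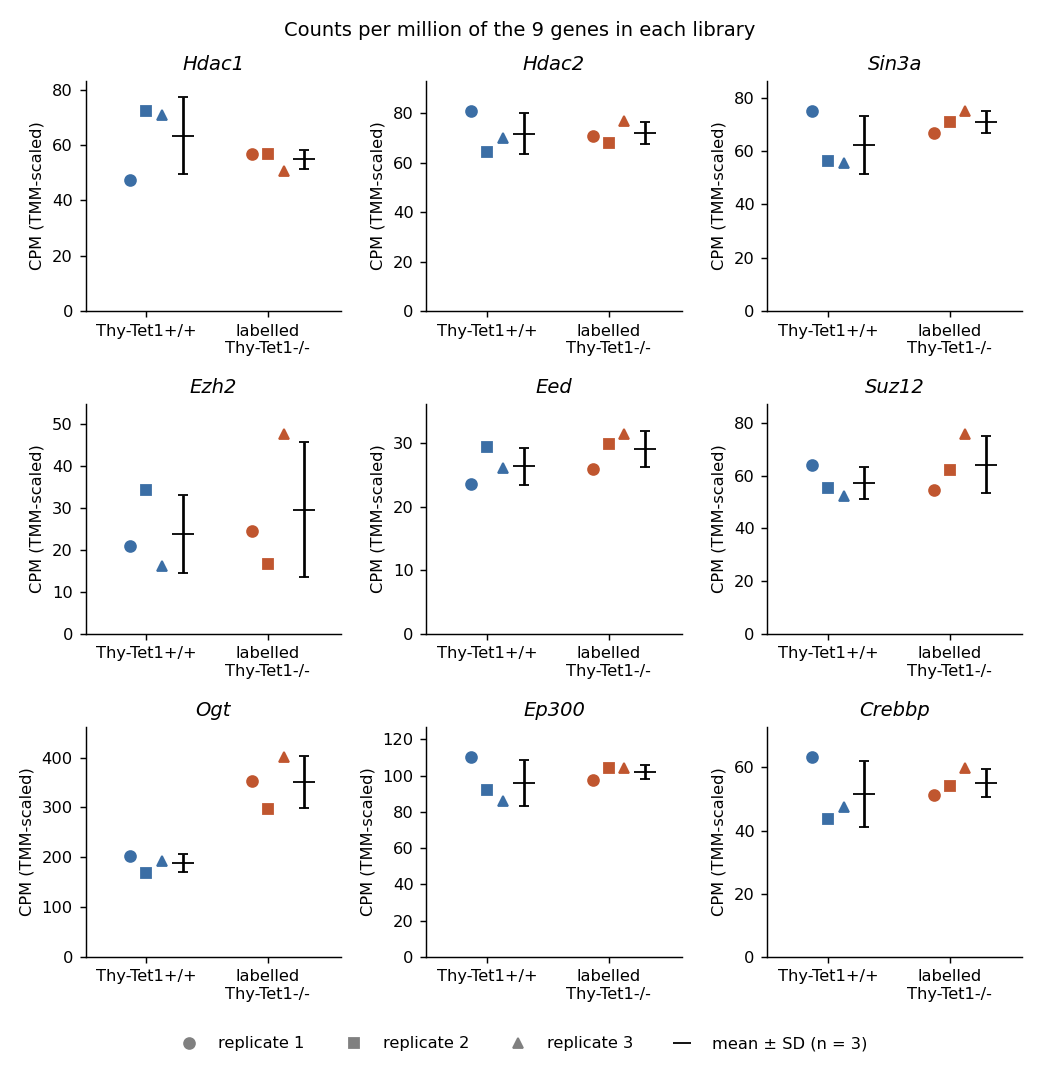
TMM-scaled CPM of each gene (vertical axes, starting at 0) in the 3 Thy-Tet1+/+ libraries (blue) and the 3 labelled Thy-Tet1-/- (orange), with symbols for replicate number and bars for mean ± SD. *Ogt* lies between 168 and 203 CPM in the first group and between 297 and 402 in the second, and in each of the other 8 panels the groups overlap.

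*Ogt* (NCBI gene 108155) spans positions 101640060 to 101684351 of chromosome X on the plus strand (mm10, GENCODE M21) and has 22 merged exons. The RefSeq promoter window of *Ogt*, 250 bases before to 50 bases after the start, holds 20 CG pairs, more than in 63.6% of the 17267 promoters compared, whose median was 13. CG pairs are the letters that TET enzymes act on, and the stretch just upstream of the *Ogt* start (chrX:101640021-101640050, plus strand, GRCm38.p6) is shown with them in capitals:
Ogt: tcCGCGgggtacttgattataacagaaagt
No methylation was measured in these samples. Of the 9 genes, 8 had a promoter entry, with 14 CG pairs in *Sin3a*, 17 in *Eed*, 30 in *Ep300*, 31 in *Ezh2*, 36 in *Hdac2*, 41 in *Suz12* and 49 in *Crebbp*. *Ogt* lay near the low end of this group.

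*Ogt* gave 203, 168 and 191 CPM in the Thy-Tet1+/+ libraries and 353, 297 and 402 CPM in the libraries labelled Thy-Tet1-/-. Its lowest value in the second group thus stood well above the highest in the first. The means were 188 ± 17.8 and 350 ± 52.3 CPM (SD, n = 3), which edgeR fitted as a log2 fold change of 0.90 (SE 0.15, 95% interval 0.54 to 1.27), or 1.87-fold (1.45 to 2.40). The unadjusted p of edgeR was 6.86e-04, rank 116 of all tested genes, and the adjusted p was 0.0805. A two-sided exact permutation test gave p = 0.1, the smallest value that 3 libraries against 3 allow. By DESeq2 the log2 fold change of *Ogt* was 0.91 (adjusted p = 1.52e-06), and the largest adjusted p among the 15 alternatives was 0.321, in the fit with a muscle score as covariate. The fold and unadjusted p stayed past the limits in 15 of 15 alternatives, with log2 fold changes of 0.77 to 1.37. The lower epithelial score of the same 3 libraries moved with this difference, and its part was not tested. Scaling to the epithelial genes gave the 1.37, but it also moved the median of all tested genes to 0.48. Relative to that median *Ogt* was at 0.89, beside 0.90 in the first fit. A change of scaling shifts all genes by nearly the same amount. This relative value was therefore nearly fixed in advance and says nothing about the part of the epithelial score. The *Ogt* counts came from exons that no other annotated gene overlaps.

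OGT works against a single opposing enzyme, the O-GlcNAcase OGA, so the ratio of the pair was taken within each library. *Oga*, listed under its older symbol *Mgea5*, gave 148, 140 and 144 CPM in the Thy-Tet1+/+ libraries, against 119, 144 and 170 in the others, and its mean was 144 CPM in both groups. Its log2 fold change was 0.0033 (edgeR, adjusted p = 0.993), and its exons overlap an antisense gene by 551 bases. For *Ogt* to *Oga* the Thy-Tet1+/+ libraries had ratios of 1.37, 1.20 and 1.33, and those labelled Thy-Tet1-/- had 2.95, 2.06 and 2.36. The ratio was therefore higher in every library of the second group, by 0.91 on the log2 scale (SE 0.16, or 1.87-fold), with an exact permutation p of 0.1 and an adjusted p of 0.4 over the 4 ratios computed.

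Of the 7 other O-GlcNAc genes, 0 were past the limits upwards and 1 downwards (5.54% and 3.66% of all genes), the median log2 fold change was -0.23, and 3 had lower, non-overlapping values in the libraries labelled Thy-Tet1-/-, beside 14.3% of all genes. *Pgm3*, an enzyme of UDP-GlcNAc synthesis, measured 94.0, 33.0 and 85.0 CPM in the Thy-Tet1+/+ libraries, against 34.4, 41.1 and 37.9 in the others. The second Thy-Tet1+/+ library thus lay below all of the second group. The log2 fold change of *Pgm3* was -0.90 (edgeR, adjusted p = 0.247), and it was past the limits in 1 of the 6 fits that left out a library, with the second Thy-Tet1+/+ library as the one omitted. *Pgm3* also shares 1270 exonic bases with *Dop1a* on the opposite strand.

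**Figure D2:**
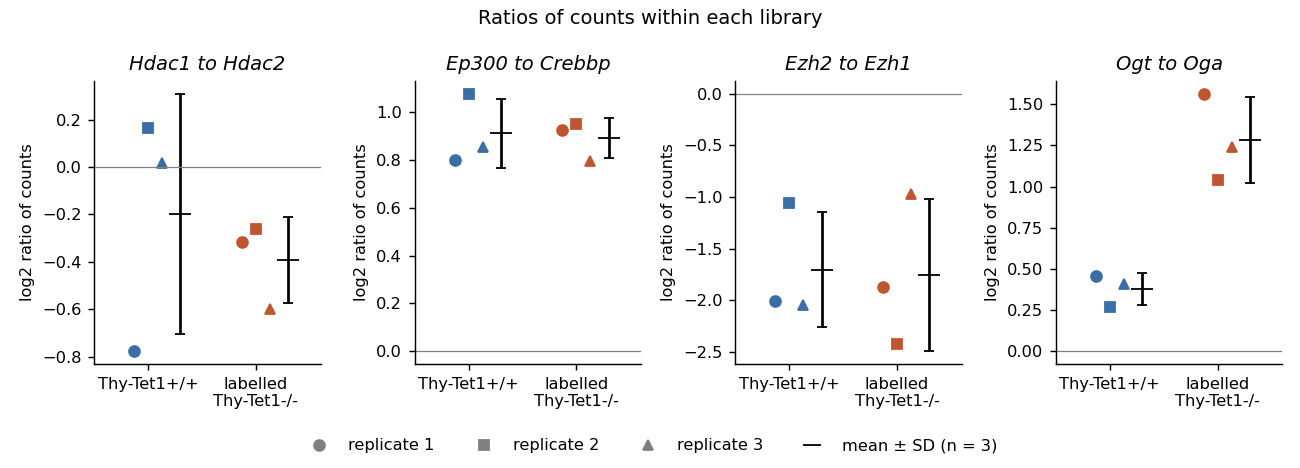
Log2 ratio of counts within each library (vertical axes) for the pairs *Hdac1* to *Hdac2*, *Ep300* to *Crebbp*, *Ezh2* to *Ezh1* and *Ogt* to *Oga*, with symbols for replicate number and bars for mean ± SD. The *Ogt* to *Oga* ratio averages 0.38 in the Thy-Tet1+/+ libraries and 1.28 in those labelled Thy-Tet1-/- with no overlap, and the other 3 ratios overlap.

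*Hdac1* encodes the deacetylase whose binding to the human *PAX8* promoter the study followed, in human thyroid cell lines with TET1 knocked down and not in these glands. Its libraries measured 47.2, 72.3 and 70.8 CPM in the Thy-Tet1+/+ group and 56.9, 56.8 and 50.8 CPM in the group labelled Thy-Tet1-/-. The shallowest library, the first Thy-Tet1+/+ one, had the lowest value of all 6, and the other two of its group had the highest. The means were 63.4 ± 14.1 and 54.8 ± 3.51 CPM (SD, n = 3), with a log2 fold change of -0.21 (SE 0.18, 95% interval -0.64 to 0.21, adjusted p = 0.560). Without the first Thy-Tet1+/+ library the log2 fold change of *Hdac1* was -0.39 (SE 0.093), the groups no longer overlapped, and the unadjusted p of edgeR was 0.0076, with an adjusted p of 0.128. *Hdac1* has processed pseudogenes that match its transcript at 99.4% over 1444 bases (*Gm10093*), 96.3% over 1450 bases (*AC125456.1*) and 94.6% over 1469 bases (*Gm4864*), none of which has a row in the count table, so its counts are uncertain.

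*Hdac2*, the close paralogue of *Hdac1*, measured 80.9, 64.4 and 70.0 CPM against 70.7, 68.1 and 76.9 CPM. The means were 71.8 ± 8.40 and 71.9 ± 4.52 CPM (SD, n = 3) and the log2 fold change was 0.0034 (95% interval -0.28 to 0.29, adjusted p = 0.993), an interval narrower than the 1.5-fold limit on either side. For *Hdac1* to *Hdac2* the Thy-Tet1+/+ libraries had ratios of 0.584, 1.12 and 1.01, and the others had 0.804, 0.835 and 0.660. The first Thy-Tet1+/+ library had the lowest ratio and its 2 group mates the highest, so the groups overlapped, with a log2 difference of -0.19 (SE 0.31, exact permutation p = 0.6, adjusted p = 1).

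*Sin3a*, the scaffold of the deacetylase complex, measured 75.0, 56.4 and 55.7 CPM in the Thy-Tet1+/+ libraries and 66.8, 70.9 and 75.1 CPM in the others. Again the first Thy-Tet1+/+ library stood apart from its group, in this gene on the high side. The log2 fold change was 0.19 (SE 0.14, 95% interval -0.16 to 0.53, edgeR adjusted p = 0.529), and without that library it was 0.34 with an unadjusted p of 0.0121 and an adjusted p of 0.145. The exons of *Sin3a* overlap the antisense gene *Man2c1os* by 205 bases, and whether counting used strand is not given in the sources used here.

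*Pax8*, whose human counterpart the study tied to HDAC1 in cell lines, encodes a transcription factor of follicular cells. For thyroids of Thy-Tet1-/- mice the paper reports higher *Pax8* mRNA, by RNA sequencing and quantitative PCR. It also reports more PAX8 protein there, by tissue staining and western blot. In these counts *Pax8* measured 259 ± 2.05 CPM in the Thy-Tet1+/+ libraries and 346 ± 20.2 CPM in those labelled Thy-Tet1-/- (SD, n = 3). The log2 fold change of *Pax8* was 0.42, or 1.33-fold and under the 1.5-fold limit, with an edgeR adjusted p of 0.127. Its groups did not overlap, as was so for 12.5% of all genes in that direction. Those of *Hdac1*, *Hdac2* and *Sin3a* overlapped.

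The PRC2 core varied in *Ezh2* more than in its partners. *Ezh2*, the methyltransferase subunit, measured 21.0, 34.1 and 16.1 CPM in the Thy-Tet1+/+ libraries and 24.5, 16.7 and 47.6 CPM in the libraries labelled Thy-Tet1-/-. The highest library held 2.96 times the lowest, and both groups spanned most of that range. The log2 fold change of *Ezh2* was 0.32 (SE 0.43, 95% interval -0.72 to 1.35, adjusted p = 0.740), an interval that reaches past the 1.5-fold limit on both sides. *Eed*, which binds the methyl mark, measured 23.6, 29.5 and 26.1 CPM against 26.04, 29.98 and 31.5 CPM, with a log2 fold change of 0.14 (95% interval -0.19 to 0.47, adjusted p = 0.624). *Suz12*, the subunit that holds the complex together, measured 63.9, 55.2 and 52.4 CPM against 54.5, 62.2 and 75.8 CPM, with a log2 fold change of 0.17 (95% interval -0.20 to 0.53, adjusted p = 0.602). The groups of *Eed* and *Suz12* overlapped.

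Markers of other cells stood out in the library with the most *Ezh2*. Across the other libraries the T cell and proliferation scores did not follow the order of *Ezh2*, while the highest muscle scores lay in the libraries with the least *Ezh2*. Replicate 3 labelled Thy-Tet1-/-, which had the highest *Ezh2*, also had the highest score of the T cell list (5.55, against 0.075 to 3.17 in the other 5 libraries, 4 of 7 listed genes being tested) and of the 5 proliferation genes (5.06, against 1.27 to 2.48). The thymocyte genes *Rag1* and *Dntt* gave 2506 and 2762 counts there and 350 and 175 counts in the first Thy-Tet1+/+ library, and 0 to 3 counts in the other 4. The proliferation gene *Mki67* gave 2527 counts in that library and 138 to 239 in each of the others. The first Thy-Tet1+/+ library, second in both of these scores (3.17 and 2.48), had 21.0 CPM of *Ezh2*, whereas the second, with 34.1 CPM, had scores of 1.21 and 1.66. The muscle score was lowest in the library with the most *Ezh2*, at 1.44. In the order of rising muscle score the other libraries had 24.5 CPM of *Ezh2* (score 3.59), 34.1 (6.32), 16.1 (8.63), 21.0 (9.23) and 16.7 (9.48). Without replicate 3 labelled Thy-Tet1-/- the log2 fold change of *Ezh2* was -0.22, and with the muscle score as a covariate it was -0.36. The part of these cells in the level of *Ezh2* was not tested.

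**Figure D3:**
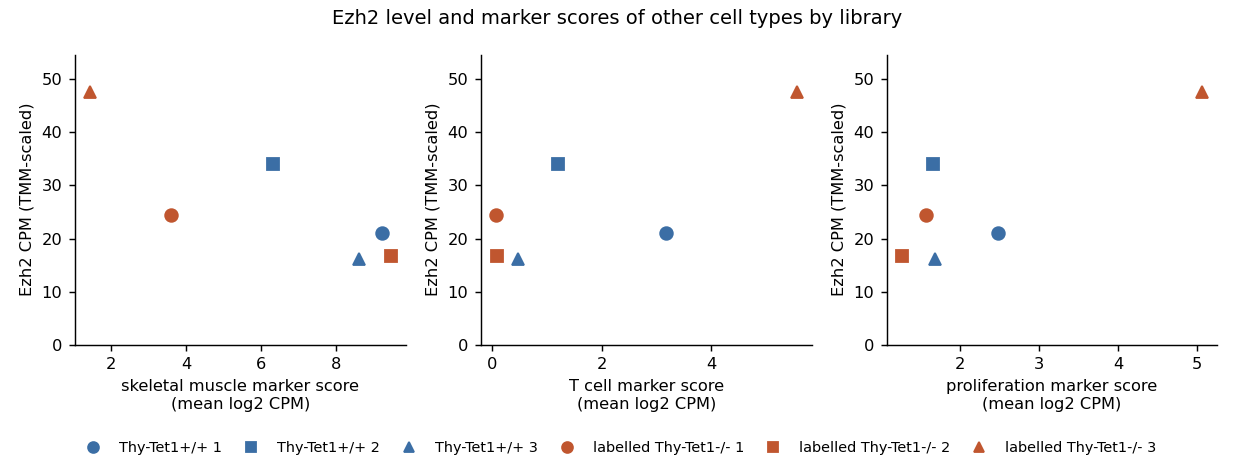
*Ezh2* in TMM-scaled CPM (vertical axes, starting at 0) against the mean log2 CPM of skeletal muscle, T cell and proliferation marker genes (horizontal axes) in each of the 6 libraries, blue for Thy-Tet1+/+ and orange for those labelled Thy-Tet1-/-. The library with 47.6 CPM of *Ezh2* has the lowest muscle score, 1.44, and the highest T cell and proliferation scores, 5.55 and 5.06, while the library with 34.1 CPM has low T cell and proliferation scores, 1.21 and 1.66.

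*Ezh1*, which can replace *Ezh2* in PRC2 and is known from resting tissues, measured 84.6, 71.2 and 66.5 CPM in the Thy-Tet1+/+ libraries and 89.6, 89.99 and 93.3 CPM in the others. All values of the second group lay above those of the first. The log2 fold change of *Ezh1* was 0.30, under the fold limit, with an adjusted p of 0.244 by edgeR. The ratio of *Ezh2* to *Ezh1* was 0.248, 0.479 and 0.242 against 0.273, 0.186 and 0.510, which overlapped (log2 difference -0.052, SE 0.53, exact permutation p = 1).

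The acetyltransferases differed little between the groups. *Ep300* measured 110, 92.0 and 85.8 CPM in the Thy-Tet1+/+ libraries and 97.5, 104 and 104 CPM in the others, and *Crebbp* measured 63.4, 43.6 and 47.4 CPM against 51.3, 54.0 and 60.0 CPM. In both genes the first Thy-Tet1+/+ library was the highest of all 6, and the second group lay above the remaining Thy-Tet1+/+ libraries. The log2 fold changes were 0.09 for *Ep300* (SE 0.12, 95% interval -0.21 to 0.38, adjusted p = 0.748) and 0.10 for *Crebbp* (SE 0.16, 95% interval -0.29 to 0.49, adjusted p = 0.786). The ratio of *Ep300* to *Crebbp* stayed between 1.74 and 2.11 in all 6 libraries, with a log2 difference of -0.020 (SE 0.097, exact permutation p = 0.8, adjusted p = 1).

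**Figure D4:**
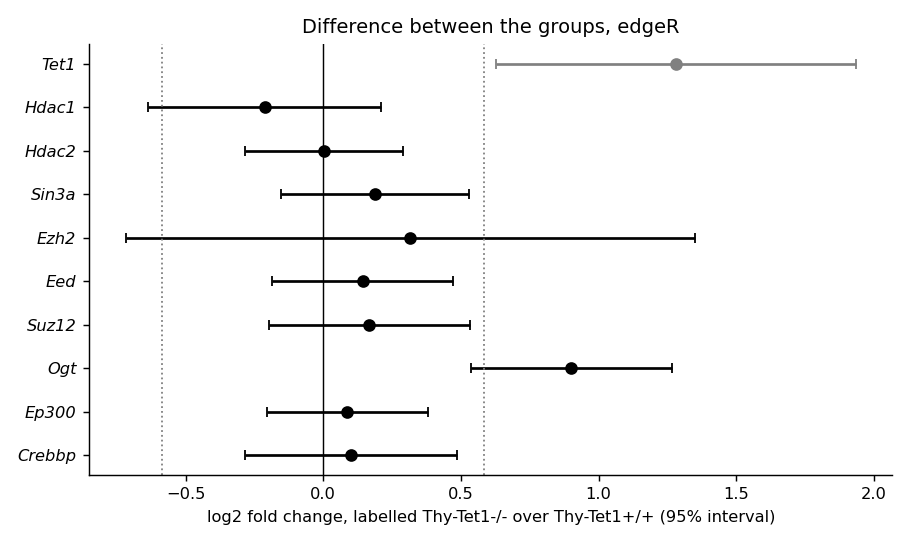
Log2 fold change of each gene, and of *Tet1* in grey, in the libraries labelled Thy-Tet1-/- over Thy-Tet1+/+ (horizontal axis), with 95% intervals from edgeR and dotted lines at the 1.5-fold limits. The interval of *Ogt* runs from 0.54 to 1.27, and the intervals of the other 8 genes include 0.

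One library decided how several of these genes looked. Without the first Thy-Tet1+/+ library, 3 of the 9 genes had an unadjusted p under 0.05 (*Hdac1* lower, *Sin3a* and *Ogt* higher), beside 20.7% of all genes, and 5 of the 9 had groups that did not overlap (*Ep300* and *Crebbp* as well), beside 41.1% of all genes. In each of the other 5 fits with a library left out, *Ogt* alone of the 9 had a p under 0.05. No gene of the 9 was past the adjusted threshold in any of these 6 fits of edgeR. None besides *Ogt* was past the fold limit together with an unadjusted p under 0.05. *Ezh2* passed the fold limit alone without the second Thy-Tet1+/+ library, at a log2 fold change of 0.68 (edgeR unadjusted p = 0.190).

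Per kilobase of the longest annotated transcript, the Thy-Tet1+/+ libraries placed *Ogt* first at 34.9 CPM per kb, then *Hdac1* at 31.1, *Hdac2* at 22.1, *Suz12* at 13.1, *Eed* at 12.8, *Sin3a* at 11.98, *Ep300* at 10.04, *Ezh2* at 8.52 and *Crebbp* at 4.76. Neighbours in this order overlapped in range across the Thy-Tet1+/+ libraries except *Hdac2* and *Suz12*. In the libraries labelled Thy-Tet1-/- the level of *Ogt* was 65.1 CPM per kb and that of *Hdac1* was 26.9, and their ranges (55.2 to 74.6 and 24.9 to 27.9) no longer overlapped. Among the 9 genes, *Hdac1* and *Hdac2* thus stood above the PRC2 and acetyltransferase genes in level in both groups. *Ezh1*, which is not among the 9, was at 17.6 CPM per kb in the Thy-Tet1+/+ libraries and 21.6 in the others, near *Hdac2*.

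Genes with the library pattern most like each of the 2 genes examined in this way were ranked by the root mean square difference of centred log2 CPM over the 6 libraries. For *Ogt* they were *Srrm2* (0.058), *Ttc14* (0.060), *Bbs12* (0.065), *Hdac7* (0.068) and *Iffo1* (0.076), whose log2 fold changes ran from 0.84 to 1.04. For *Hdac1* they were *Ap1m2* (0.040), *Ankrd46* (0.042), *Fkbp1a* (0.045), *Timm22* (0.047) and *Bsdc1* (0.048), each low in the shallowest library as *Hdac1* was.

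Partners of the 9 genes were counted on 9 further lists of 97 genes, all of which were tested. There, 9 genes were past the limits upwards and 2 downwards, together 11 of 97 beside 9.2% of all genes. An adjusted p under 0.05 was reached by 0 with edgeR (0.113% of all genes) and 14 with DESeq2 (8.43%), an unadjusted p under 0.05 by 26 with edgeR (18.9%), and the median log2 fold change was 0.046. Of the 11, 7 stayed past the limits whichever library was left out, and 4, *Hdac10*, *Rcor2* and *Pgm3* among them, did not.

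Polycomb repressive complex 1 (PRC1) reads the mark that PRC2 writes and ubiquitinates histone H2A, and its list of 17 genes was the longest. Of these, 4 were past the limits upwards (5.54% of all genes) and 0 downwards, 8 had higher values without overlap (12.5% of all genes), and the median was 0.36. *Cbx7*, a chromodomain reader, measured 45.3, 49.4 and 41.9 CPM against 87.5, 74.6 and 97.9 CPM, and its log2 fold change was 0.93 (SE 0.13, edgeR adjusted p = 0.0730). *Pcgf2*, a ring finger subunit, measured 26.9, 27.7 and 29.2 CPM against 56.8, 44.0 and 50.5 CPM, a log2 fold change of 0.85 with the same adjusted p. Neither gene had a value in the second group near those of the first. *Cbx2* was higher by a log2 fold change of 1.77 (edgeR, adjusted p = 0.0817). *Cbx7* overlaps *Apobec3* by 100 exonic bases on the opposite strand. On the list of PRC2 partners and H3K27 demethylases 9 of 9 log2 fold changes were positive, beside 7080 of all 14143 genes, with a median of 0.30. Of these 9, 0 were past the limits, beside 9.2% of all genes. Higher values without overlap were seen in 4 of the 9, beside 12.5% of all genes.

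Among the 9 other deacetylase genes, 2 were past the limits upwards and 0 downwards (5.54% and 3.66% of all genes), with a median of 0.26. *Hdac7*, a class IIa deacetylase, measured 62.9, 55.0 and 62.5 CPM against 108, 85.1 and 130 CPM, a log2 fold change of 0.84 (edgeR, adjusted p = 0.0965). *Hdac10*, a polyamine deacetylase, had a log2 fold change of 0.66 (adjusted p = 0.197), with unadjusted p values of 0.0551 to 0.0896 when replicate 1 or 2 of Thy-Tet1+/+ or replicate 1 or 3 labelled Thy-Tet1-/- was left out. *Hdac7* and *Slc48a1* share 29 exonic bases on opposite strands.

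In the remaining SIN3 complex 1 of 15 genes was past the limits upwards and 0 downwards (5.54% and 3.66% of all genes), with a median of -0.17. That gene was *Ing2*, a reader of methylated histone H3, with 8.74 ± 0.486 against 16.0 ± 1.51 CPM (SD, n = 3) and a log2 fold change of 0.87 (edgeR, adjusted p = 0.0915). In the NuRD complex, the other complex that holds HDAC1 and HDAC2, 0 of 10 genes were past the limits, beside 9.2% of all genes. *Mbd3* had the lowest p there, with a log2 fold change of -0.40 (edgeR, adjusted p = 0.150). In the CoREST and NCoR complexes 2 of 10 were past the limits upwards, beside 5.54% of all genes. These were *Rcor3* at 0.76 (edgeR, adjusted p = 0.124) and *Rcor2* at 1.76 (edgeR, adjusted p = 0.219). *Rcor2* was at only 0.428 to 4.37 CPM with overlapping groups, and its unadjusted p was 0.0724 to 0.101 when replicate 2 or 3 of Thy-Tet1+/+ or replicate 1 or 3 labelled Thy-Tet1-/- was left out. *Rcor3* shares 667 exonic bases with *Gm26879* on the opposite strand.

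Among the 8 other acetyltransferase genes 0 were past the limits, beside 9.2% of all genes, with a median of -0.05. *Kat7* had the lowest p of these (log2 fold change -0.23, edgeR adjusted p = 0.323). Among the 12 partners of CBP and p300, 1 was past the limits, downwards, beside 3.66% of all genes in that direction. *Cited4*, which binds the CH1 domain of both proteins, measured 110, 172 and 105 CPM in the Thy-Tet1+/+ libraries and 42.0, 42.8 and 36.0 CPM in those labelled Thy-Tet1-/-. Every value of the second group was far below the first, with a log2 fold change of -1.68 (SE 0.21, edgeR adjusted p = 0.0641).

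**Figure D5:**
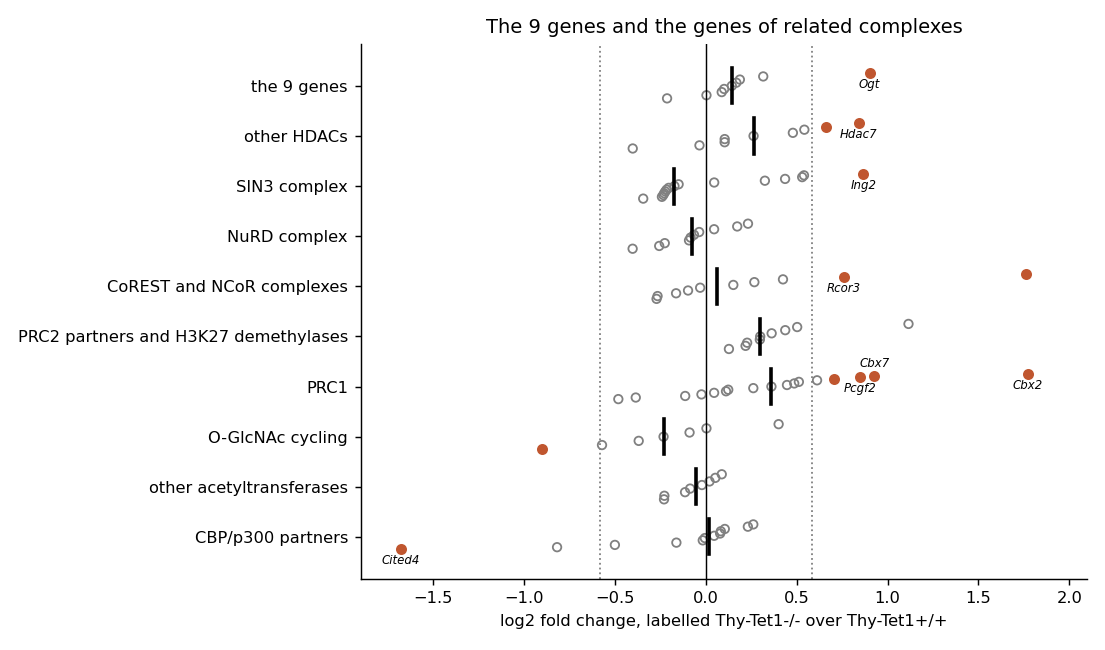
Log2 fold change of each tested gene (horizontal axis) in the 9 genes and in 9 lists of related genes (rows), with filled points for genes past 1.5-fold at an unadjusted p under 0.05, named where the call held whichever library was left out, a black bar at each median and dotted lines at the 1.5-fold limits. *Ogt* is the filled point of the 9 genes, PRC1 has 4 filled points on the higher side, and *Cited4* at -1.68 is the lowest.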

How the data were processed

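RNA of whole thyroid glands was sequenced in 3 mice per group. The authors deposited raw counts, whole-number reads per gene, with no normalization, and the processing notes name the mm10 build, while the aligner, counting tool and strand setting are not given in the sources used here. Group and replicate number came from the labels. Date-like symbols (27) in the table were restored from gene identifiers, and 183 of 183 listed genes matched. No per-sample column was left unused (0 others).

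Genes kept by filterByExpr (14143) were tested in R 4.3.3 with edgeR 4.0.16 (TMM scaling, quasi-likelihood fit, biological coefficient of variation 0.327), with Benjamini-Hochberg adjustment over all of them. Calls were an adjusted p under 0.05, or a change of more than 1.5-fold, the fold limit of the study, with an unadjusted p under 0.05. Alternatives (15) used other scalings, filters, DESeq2 1.42.0, limma 3.58.1 with voom, a muscle score covariate, a replicate block and omission of each library. Ratios were tested by a two-sided exact permutation test over libraries (scipy 1.17.1). CPM are TMM-scaled. Levels per kb used the longest protein-coding GENCODE transcript. The code was tested on simulated data.

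Named genes were the 9 genes, *Tet1*, *Pax8*, *Ezh1*, *Oga*, in each further list every gene past a call rule or otherwise the gene with the lowest p, the 5 genes nearest in pattern to *Hdac1* and *Ogt*, and markers. The 9 genes and all lists were chosen with earlier results of these data known. Each library came from a separate mouse by its label, and p-values measure the spread between these libraries. Depth limits precision through counting error in the shallowest library, where 3 counts are 0.338 CPM. Some items are not reported here.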

Additional observations from a re-analysis of the deposited data

How the results depend on the processing

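With 3 libraries a group, exact tests cannot go below p = 0.1, and edgeR with 0.327 biological variation finds few genes at an adjusted threshold. *Ogt* kept its direction and stayed past the limits in all 15 alternatives run. Its adjusted p was under 0.05 in 2 of them, DESeq2 and the scaling to 10 epithelial genes. Scaling to 10 epithelial genes, which moves the median of all genes by 0.48, put 4 of the 9 genes (*Sin3a*, *Eed*, *Suz12*, *Ogt*) and 41 wider genes past the limits, against 1 and 11. Of all genes, 28.4% were past the limits in that fit, against 9.2% in the first. An adjusted p under 0.05 was reached there by 2 of the 9 and 34 wider genes, beside 2267 of all 14143. *Hdac1* was at 0.29 in that fit, which is -0.20 relative to the median, a relative value that scaling leaves nearly unchanged by construction. The share of genes past the limits that were higher was 60.2% in the first fit, 86.1% with plain totals and 97.9% with epithelial scaling. Plain totals moved the median by 0.19 and put 19 wider genes past the limits, beside 12.1% of all genes. Epithelial scaling put 4021 genes past the limits. Genes at an adjusted p under 0.05 numbered 16 in all by edgeR, 1192 by DESeq2 (1 of the 9 and 14 wider genes), 25 with a minimum of 10 counts in every library (1 wider gene), and 0 with the muscle covariate or the replicate block. With the muscle covariate *Hdac2* was at -0.016 and *Ezh2* at -0.36. Leaving out 1 library gave ranges of -0.070 to 0.095 for *Hdac2*, -0.22 to 0.68 for *Ezh2*, -0.0061 to 0.27 for *Crebbp*, -0.075 to 0.063 for the log2 ratio of *Ep300* to *Crebbp* and -0.45 to 0.28 for that of *Ezh2* to *Ezh1*. The cause of these shifts was not tested.

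No likeness of same-numbered libraries was seen: their deviations from the group means correlated at -0.167, -0.372 and -0.193. The mean correlation of the 6 other pairs was 0.122. Deviations from means of 3 libraries are tied to one another, so these values cannot decide whether libraries shared a batch. With the replicate block, 1 of the 9 genes was past the limits, as without it, *Ogt* at 0.89 (adjusted p = 0.242), and 1145 genes were past the limits in all against 1301. The block changed no call among the 9, and *Pgm3* alone of the 11 wider genes was no longer past the limits (-0.78).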

Other observations

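Genes of RNA splicing and nuclear RNA processing were looked up after *Srrm2* appeared among the genes with a pattern like that of *Ogt*, so they were chosen after values were seen and no test is drawn from them. *Clk1*, a kinase of splicing factors, had a log2 fold change of 0.89 with 117 ± 21.4 CPM in the Thy-Tet1+/+ libraries and 217 ± 27.4 CPM in those labelled Thy-Tet1-/- (SD, n = 3). *Luc7l3* (0.90), *Srsf5* (0.97), *Ddx5* (0.70), *Clk4* (0.67) and *Rbm39* (0.61) were higher as well. The groups of all 6 genes did not overlap, beside 12.5% of all tested genes in that direction, and their adjusted p values by edgeR ran from 0.0919 to 0.243.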
